A study of Mus musculus with 18 samples.

Results

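Homing and egress receptors are the G protein-coupled receptors with which T cells enter, cross and leave tissues. The 8 genes Ccr7, S1pr1, Cxcr3, Gpr15, Ccr9, Cxcr4, Ccr2 and Cxcr6 were chosen by name, with earlier results of these data known. The gene lists used further on were chosen likewise, so counts set beside the share of all genes are descriptive. The 8 genes were found by Ensembl ID among the 55487 genes of the deposited count table. All 8 had enough counts to be among the 13150 genes tested. RNA came from CD8+ T cells of spleen and lymph nodes of wild-type C57BL/6J mice, a genotype shared by every group. The cells had been sorted by 41BB (CD137), which costimulates T cells and belongs to the TNF receptor family, into 41BB+ cells (called Tpam in the study) and 41BB- cells (called conventional). The 6 groups were 41BB+ and 41BB- cells without stimulation (0 h), and both populations after 24 h or 72 h of activation on CD3/CD28 beads, which engage the antigen receptor complex and its costimulator. No group was kept in culture without beads, so effects of stimulation and of time in culture cannot be told apart. Each group had 3 libraries, described by the study as biological triplicates. No source used here gives the age or sex of the mice, or the number of animals behind each replicate.

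A circulating naive T cell enters lymph nodes with CCR7, the receptor for the chemokines CCL19 and CCL21, and leaves them with S1PR1, the receptor for sphingosine 1-phosphate, a lipid kept high in blood and lymph. KLF2 and FOXO1 are transcription factors known to maintain S1pr1 expression in quiescent T cells, and CD69 holds the S1PR1 protein inside the cell after activation. Other members direct cells to particular tissues. CXCR3 responds to the interferon-induced chemokines CXCL9 and CXCL10 of inflamed tissue, GPR15 serves homing to the large intestine and the skin, CCR9 responds to CCL25 of thymus and small intestine, CXCR4 to CXCL12 of bone marrow, CCR2 to CCL2 at inflamed sites, and CXCR6 to CXCL16 in tissues such as the liver.

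On GRCm38, Ccr7 lies on chromosome 11 (ENSMUSG00000037944, 99144196 to 99155077), S1pr1 on chromosome 3 (ENSMUSG00000045092, 115710433 to 115715072), Cxcr3 on chromosome X (ENSMUSG00000050232, 101731535 to 101734269), Gpr15 on chromosome 16 (ENSMUSG00000047293, 58717433 to 58719070) and Cxcr4 on chromosome 1 (ENSMUSG00000045382, 128588199 to 128592293). Ccr9 (ENSMUSG00000029530, 123678439 to 123784330), Cxcr6 (ENSMUSG00000048521, 123806475 to 123811760) and Ccr2 (ENSMUSG00000049103, 124101950 to 124113557) share a stretch of chromosome 9. In that stretch also lie Xcr1, Ccr1 and Ccr3, which had 22, 5 and 9 counts over all 18 libraries and were not tested. Levels are given as CPM, the gene's share of the library's counts scaled to parts per 1e6, with mean ± SD of 3 libraries. Per kilobase of annotated exon, Ccr7 had the highest mean level of the 8 genes in each of the 6 groups, between 55.8 CPM per kb in 41BB+ cells at 24 h and 164 CPM per kb in 41BB- cells at 0 h. Ccr2 had 0.063 to 0.875 CPM per kb. S1pr1 came after Ccr7 in 41BB- cells at 0 h (128 CPM per kb) but stood below Cxcr6 and Cxcr4 in 41BB+ cells at 0 h (20.1 against 26.5 and 25.6 CPM per kb).

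Library totals ran from 3085241 to 4239795 counts. Tnfrsf9, the gene of 41BB, averaged 389 ± 27.5 CPM in 41BB+ cells, against 6.74 ± 1.74 CPM in 41BB- cells, at 0 h. After stimulation its order was reversed. At 24 h the population sorted as 41BB- had a Tnfrsf9 mean of 183 ± 11.3 CPM, above 138 ± 9.88 CPM for that sorted as 41BB+. By 72 h the means were 52.4 ± 8.68 CPM for the 41BB- sort, still above 21.2 ± 11.4 CPM for the 41BB+ sort. The population names therefore refer to the sort before culture, not to Tnfrsf9 levels after it. The CD8 chain gene Cd8a had 323 to 699 CPM in every library, and Cd4 had 1 to 6 counts in each group. The B cell marker Cd79a was at most 1.32 CPM in any library, and the 11 B cell markers summed to 4.26 to 23.3 CPM. The 14 myeloid markers summed to 160 to 192 CPM in 41BB+ and 245 to 270 CPM in 41BB- libraries at 0 h, mostly from Ctss and Ly6c2, which CD8 T cells also express. The 41BB+ library of replicate 2 at 24 h stood apart, with 188 CPM of myeloid markers against 73.7 and 61.4 CPM in the other 41BB+ libraries of that time. It held 45.9 CPM of Lyz2, 10.9 CPM of Csf1r and 14 CPM of Mpeg1, genes of macrophages and monocytes, while replicates 1 and 3 had 0 to 0.567 CPM of each. The 10 NK markers summed to 547 to 615 CPM in 41BB+ and 60.1 to 68.2 CPM in 41BB- libraries at 0 h, of which Eomes, also a CD8 T cell factor, made 531 to 606 and 52.4 to 61.8 CPM. Dendritic markers reached 135 CPM in 41BB+ replicate 3 at 0 h, against 63.2 and 64.8 CPM in the other 41BB+ libraries and 41.3 to 64.5 CPM in 41BB- libraries. The innate-like and gamma-delta T markers summed to 3.42 to 29 CPM. The 8 CD4 and regulatory T cell markers summed to 191 to 221 CPM in 41BB+ and 77.2 to 125 CPM in 41BB- libraries at 0 h, and to 940 to 1202 CPM after stimulation. Of these, 7 were tested by edgeR. In 41BB+ cells at 0 h 3 were higher (background, the share of all genes tested, 22.2%) and 1 was lower (background 17.3%). The higher ones were Il2ra (log2FC 4.05, adjusted p = 5.12e-08), Ikzf2 (log2FC 1.53, adjusted p = 5.41e-06) and Foxp3 (log2FC 2.40, adjusted p = 0.0214, 31 counts in 41BB+ and 5 counts in 41BB- libraries). The lower one was Ctla4 (log2FC -1.59, adjusted p = 0.00246), and the others did not pass. The 11 CD8 T markers summed to 3443 to 3707 CPM in 41BB+ and 4661 to 4877 CPM in 41BB- libraries at 0 h, to 1931 to 2090 CPM in 41BB+ and 2446 to 2524 CPM in 41BB- libraries at 24 h, and to 3575 to 4030 CPM in 41BB+ and 2952 to 3432 CPM in 41BB- libraries at 72 h. At 0 h 6 of these 11 were lower in 41BB+ cells (background 17.3%) and 1 was higher (background 22.2%), and at 72 h 5 were higher (background 6.71%). The part of these marker differences in the results was not tested. Leaving out the 41BB+ library of replicate 2 at 24 h changed 4 calls of the 8 receptor genes, for Gpr15 at 24 h, for both intervals of Ccr2 and for the second interval of Cxcr6.

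Before stimulation, 3 of the 8 receptor genes were lower in 41BB+ cells, namely S1pr1, Ccr7 and Gpr15, and the other 5 did not pass the test. For comparison, 17.3% of all genes tested were lower and 39.5% differed in either direction at 0 h, so 3 of 8 called in either direction is close to the share of all genes. At 24 h, S1pr1 was lower (1.07% of all genes were lower) and Gpr15 was higher in 41BB+ cells (1.67% were higher), where 2.75% of all genes differed. Without 41BB+ replicate 2 of 24 h, 1 of the 8 was called at 24 h, S1pr1, and Gpr15 had an adjusted p of 0.146. At 72 h, S1pr1, Ccr7, Gpr15 and Ccr9 were higher in 41BB+ cells, 4 of 8 members where 6.71% of all genes were higher and 18.9% differed. Without 41BB- replicate 3 of 72 h S1pr1 alone was called, and adjusted p was 0.0663 for Ccr7, 0.0924 for Gpr15 and 0.149 for Ccr9. Differences are log2 fold changes (log2FC) of edgeR's quasi-likelihood test with their SE, positive where 41BB+ cells or the later time were higher. Adjusted p is by the Benjamini-Hochberg method over the 13150 genes, with a threshold of 0.05. The median log2FC of the 8 members was -0.54, -0.54 and 0.26 at 0, 24 and 72 h, beside 0.01, 0.02 and -0.04 over all genes tested.

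**Figure D1:**
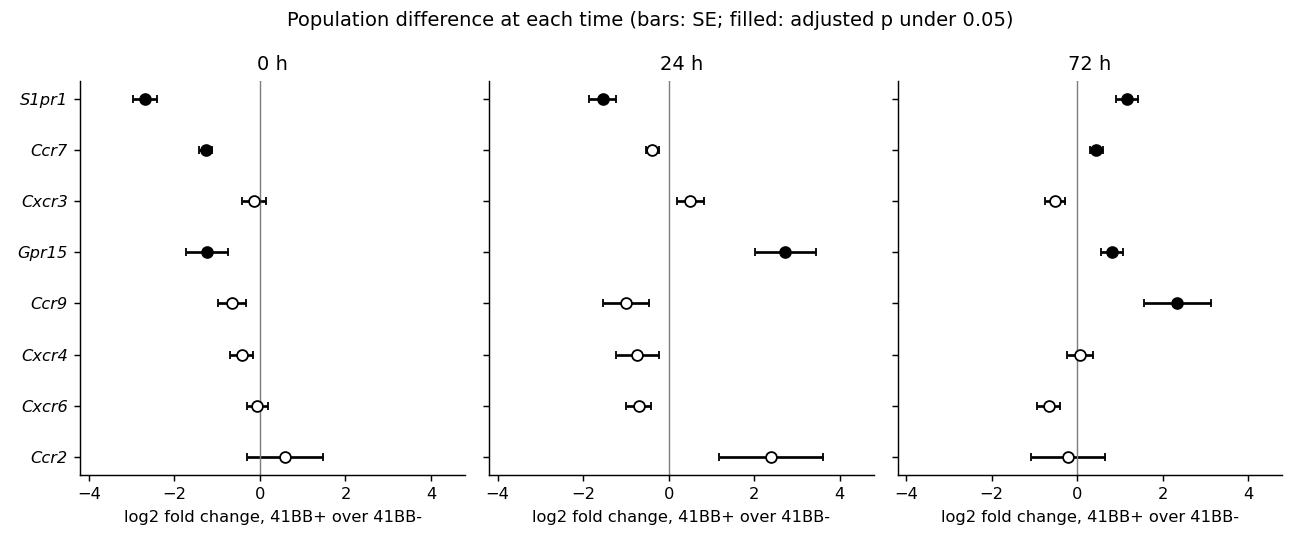
Log2 fold change of 41BB+ over 41BB- cells (x axis) for the 8 receptor genes (rows) at 0, 24 and 72 h. Points are edgeR estimates from 3 libraries per group, bars are SE and filled points have an adjusted p under 0.05; S1pr1 goes from -2.69 at 0 h to 1.17 at 72 h.

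S1pr1, the egress receptor gene, was low in freshly sorted 41BB+ cells and high in them after 72 h of stimulation, while 41BB- cells had less at 72 h than at 0 h. At 0 h it had 65.4, 56.1 and 61.8 CPM in the 41BB+ libraries, against 359, 429 and 382 CPM in the 41BB- libraries. At 24 h it had 22.1, 17.2 and 5.62 CPM in 41BB+ and 53, 47.5 and 39.8 CPM in 41BB- libraries. At 72 h it had 157, 191 and 270 CPM in 41BB+ and 105, 77.6 and 98.1 CPM in 41BB- libraries. The libraries of the 2 populations did not overlap at any time, and the 41BB+ libraries were the low ones at 0 and 24 h and the high ones at 72 h. The log2FC of 41BB+ over 41BB- cells was -2.69 ± 0.27 at 0 h (adjusted p = 8.43e-07), -1.54 ± 0.32 at 24 h (adjusted p = 0.0162) and 1.17 ± 0.26 at 72 h (adjusted p = 0.00489). The 24 h difference no longer passed without 41BB- replicate 1 or 2 (adjusted p = 0.0689 and 0.0675), or when only the 24 h groups were fitted (adjusted p = 0.0876). In a bulk sample, fewer cells of a type and less RNA per cell cannot be told apart.

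The course of S1pr1 over time had a fall and a return in both populations. From 0 to 24 h it fell in 41BB+ cells (log2FC -1.99 ± 0.32, adjusted p = 0.00014) and in 41BB- cells (log2FC -3.14 ± 0.28, adjusted p = 8.38e-08). From 24 to 72 h it rose 14.6-fold in 41BB+ cells (log2FC 3.86 ± 0.31, adjusted p = 2.72e-08) and 2.22-fold in 41BB- cells (log2FC 1.15 ± 0.28, adjusted p = 0.00331). The rise in 41BB+ cells exceeded that in 41BB- cells by 2.71 ± 0.41 on the log2 scale (interaction of population and time, adjusted p = 0.000273). Set against 0 h, the 72 h level was 3.67-fold higher in 41BB+ cells (adjusted p = 2.84e-05) and 3.96-fold lower in 41BB- cells (adjusted p = 1.32e-05). The interaction from 0 to 24 h missed the threshold (log2FC 1.15 ± 0.42, adjusted p = 0.0634), and passed with the experiment number as a block within each time (adjusted p = 0.0157), by DESeq2 (adjusted p = 0.0351), without the filter on low counts (adjusted p = 0.0177), with only the compared groups (adjusted p = 0.0488) and without 41BB+ replicate 3 of 24 h (log2FC 1.57, adjusted p = 0.000132). In order of level, the 6 groups were 41BB- at 0 h, 41BB+ at 72 h, 41BB- at 72 h, 41BB+ at 0 h, 41BB- at 24 h and 41BB+ at 24 h, and no neighbours in that order overlapped.

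**Figure D2:**
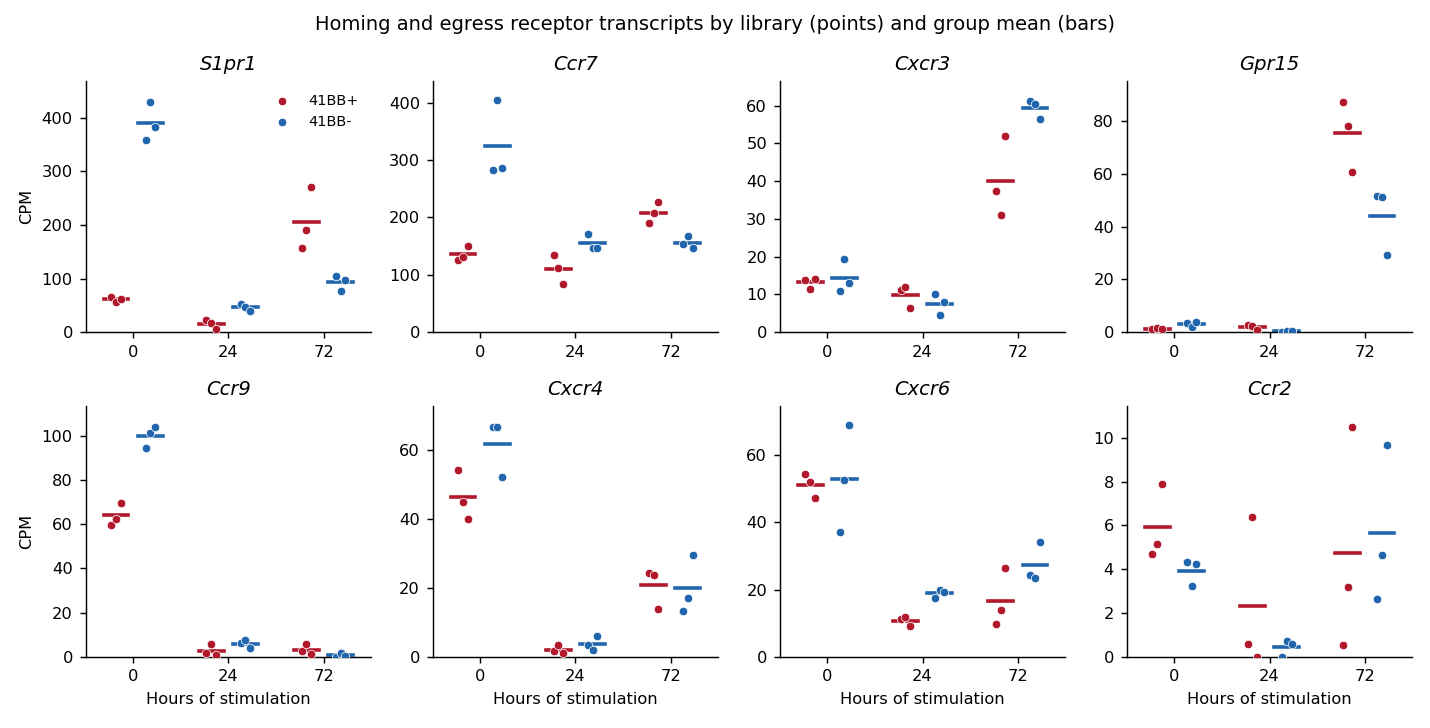
CPM (y axis, linear, from 0) of the 8 receptor genes by hours of stimulation (x axis), with 41BB+ libraries in red left of 41BB- libraries in blue; points are the 3 libraries of a group and short bars are group means. S1pr1 and Ccr7 are higher in 41BB- cells at 0 h and higher in 41BB+ cells at 72 h, Gpr15 is high only among the 72 h libraries, and Ccr9, Cxcr4 and Cxcr6 are highest at 0 h.

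Ccr7, the lymph node entry receptor gene, followed S1pr1 in direction with smaller differences. The 41BB+ libraries had 125, 131 and 150 CPM of Ccr7 at 0 h, against 282, 405 and 287 CPM in 41BB- libraries (log2FC -1.27 ± 0.15, adjusted p = 1.13e-07). At 24 h they had 135, 112 and 84.1 CPM, against 172, 147 and 146 CPM in 41BB- libraries (log2FC -0.38 ± 0.15, adjusted p = 0.257). At 72 h they had 190, 207 and 227 CPM, against 154, 168 and 146 CPM in 41BB- libraries (log2FC 0.45 ± 0.15, adjusted p = 0.0332). The populations did not overlap at any of the 3 times, but the 24 h difference did not pass the test. Adjusted p at 72 h lay above 0.05 by limma voom (0.0761) and on leaving out 41BB+ replicate 3 (0.0835) or replicate 1 or 3 of the 41BB- cells (0.0579 and 0.0663).

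In 41BB- cells Ccr7 fell 2.2-fold from 0 to 24 h (adjusted p = 2.73e-07), and its change from 24 to 72 h did not pass (log2FC 0.15 ± 0.15, adjusted p = 0.445). In 41BB+ cells the first interval did not pass (log2FC -0.25 ± 0.15, adjusted p = 0.214), and the second brought a 1.98-fold rise (adjusted p = 3.79e-06). From 0 to 72 h Ccr7 rose in 41BB+ cells (log2FC 0.73 ± 0.15, adjusted p = 0.000213) and fell in 41BB- cells (log2FC -0.99 ± 0.15, adjusted p = 4.13e-06). These changes differed between the populations by 1.72 ± 0.21 on the log2 scale (adjusted p = 1.85e-07). The 41BB- cells of 0 h stood highest (324 ± 69.7 CPM) and the 41BB+ cells of 72 h next (208 ± 18.9 CPM), each apart from the group that followed. The other 4 groups, from 156 ± 11 CPM in 41BB- cells at 72 h to 110 ± 25.6 CPM in 41BB+ cells at 24 h, overlapped their neighbours.

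Genes that control egress were examined beside S1pr1 in a list of 11, of which 7 were tested. At 0 h, 4 of the 7 were lower in 41BB+ cells (background 17.3%), with a median log2FC of -0.89. Klf2 averaged 60.9 ± 10.1 CPM in 41BB+ cells, against 479 ± 106 CPM in 41BB- cells (log2FC -2.98 ± 0.35, adjusted p = 9.65e-06), and Foxo1 averaged 203 ± 5.75 CPM in 41BB+ cells, against 371 ± 28.7 CPM in 41BB- cells (log2FC -0.89, adjusted p = 5.13e-05). Cd69 was lower too, at 88.4 ± 21.3 CPM in 41BB+ cells, against 192 ± 36.1 CPM in 41BB- cells (log2FC -1.13, adjusted p = 5.77e-05). So was Gpr183, an oxysterol receptor gene, at 71.2 ± 6.02 CPM in 41BB+ cells, against 143 ± 29 CPM in 41BB- cells (log2FC -1.01, adjusted p = 0.000139). At 72 h Foxo1 alone of the 7 was higher in 41BB+ cells (315 ± 39 CPM, against 210 ± 35.7 CPM in 41BB- cells, log2FC 0.62, adjusted p = 0.00565, background 6.71%). Klf2 had 239 ± 12.9 CPM in 41BB+ cells, against 142 ± 31.4 CPM in 41BB- cells at 72 h, a difference that did not pass (log2FC 0.79, adjusted p = 0.112).

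From 0 to 72 h, the change in 41BB+ cells exceeded that in 41BB- cells for 5 of the 7 egress genes (background 17.6%). The interaction log2FC was 3.77 for Klf2 (adjusted p = 1.75e-05), 1.50 for Foxo1 (adjusted p = 3.87e-06) and 1.37 for Cd69 (adjusted p = 0.000884). At 24 h edgeR and DESeq2 each called 0 of the 7 between populations, and 1 had an unadjusted p under 0.05. Klf2 at 24 h had 14.7, 33.7 and 6.65 CPM in 41BB+ libraries, the most in replicate 2, the library with myeloid markers, against 49.1, 41.8 and 46 CPM in 41BB- libraries. The Klf2 difference at 24 h did not pass with that library (log2FC -1.19, adjusted p = 0.169) and passed as lower in 41BB+ cells without it (log2FC -2.00, adjusted p = 0.000676), the 1 call among the 7 at 24 h without it.

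**Figure D3:**
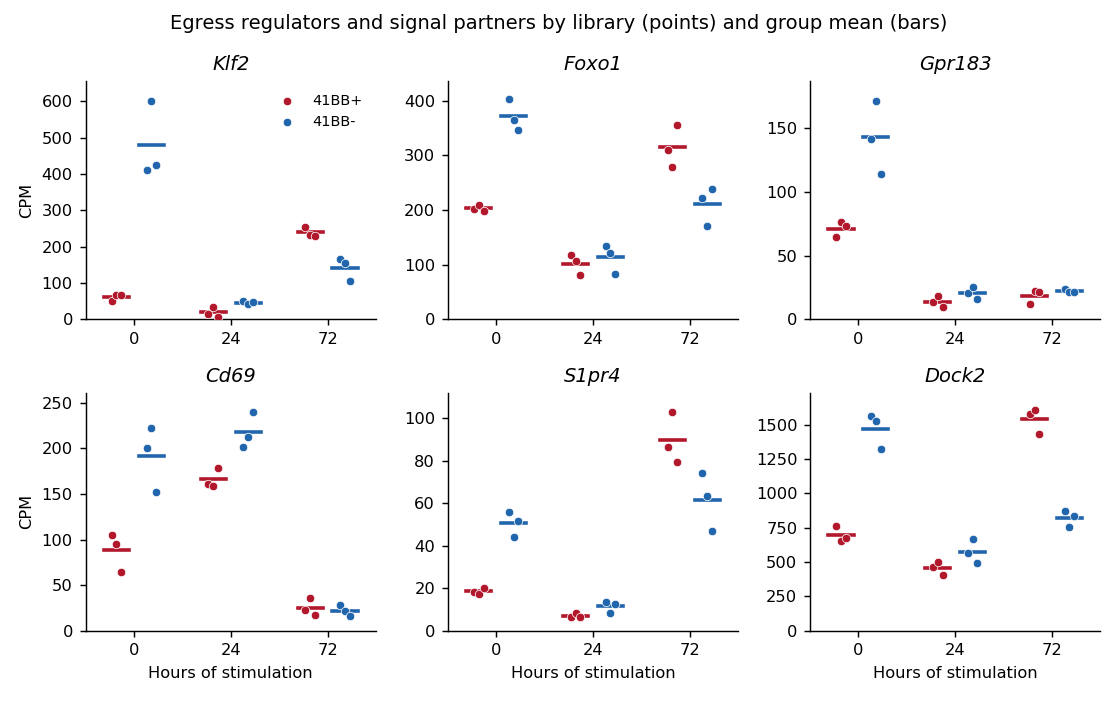
CPM (y axis, linear, from 0) of 4 genes of egress control (Klf2, Foxo1, Gpr183, Cd69), the sphingosine 1-phosphate receptor gene S1pr4 and the signalling gene Dock2, by hours of stimulation (x axis); 41BB+ libraries in red stand left of 41BB- libraries in blue, points are libraries and bars are group means. At 0 h all 6 genes are lower in 41BB+ cells, and at 72 h Foxo1, S1pr4 and Dock2 passed the test as higher in them.

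Gpr15, the large intestine and skin homing receptor gene, was low at 0 and 24 h and high at 72 h in both populations. At 0 h it had 4, 6 and 4 counts in 41BB+ and 11, 6 and 13 counts in 41BB- libraries. At 24 h it had 9, 9 and 3 counts in 41BB+ and 0, 2 and 1 counts in 41BB- libraries. At 72 h it had 87.2, 78.3 and 60.6 CPM in 41BB+ and 51.6, 51.2 and 29.2 CPM in 41BB- libraries. Between 24 and 72 h it rose 41.3-fold in 41BB+ cells (log2FC 5.37 ± 0.35, adjusted p = 2.39e-13). In 41BB- cells 496 counts at 72 h stood against 3 at 24 h, a ratio of 157 (95% counting interval 53.3 to 763, adjusted p = 1.22e-12). Replicate 2 held 2 of those 3 counts, and without it the fitted log2FC was 7.97 in place of 7.29. From 0 to 72 h the rise was 60.8-fold in 41BB+ and 14.7-fold in 41BB- cells, and the difference between these changes passed (log2FC 2.05 ± 0.56, adjusted p = 0.00364) except by limma voom (adjusted p = 0.0524).

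Between populations, Gpr15 was higher in 41BB+ cells at 72 h (75.4 ± 13.6 CPM, against 44 ± 12.8 CPM in 41BB- cells, log2FC 0.81 ± 0.25, adjusted p = 0.0195), with no overlap of libraries. It no longer passed on leaving out 41BB+ replicate 1 (adjusted p = 0.0713) or 41BB- replicate 3 (adjusted p = 0.0924). At 24 h it had 21 counts over the 41BB+ and 3 over the 41BB- libraries, 6.79 times as many per count sequenced (95% counting interval 2.03 to 35.6, adjusted p = 0.0347). At 0 h the difference ran the other way, with 14 counts in 41BB+ and 30 in 41BB- libraries (log2FC -1.24 ± 0.50, adjusted p = 0.0495). Both early calls rest on few counts and were each lost without any 1 of 5 of the 6 libraries, with adjusted p up to 0.163 at 24 h and 0.171 at 0 h, and by limma voom (adjusted p = 0.257 at 24 h and 0.273 at 0 h). In 41BB- cells Gpr15 also fell from 0 to 24 h, with 3 counts at 24 h against 30 at 0 h, and the 0 h level was 11.3 times the 24 h level (95% counting interval 3.52 to 57.9, adjusted p = 8.59e-05). Its change over that interval in 41BB+ cells did not pass (log2FC 0.56 ± 0.53, adjusted p = 0.445), and the interaction passed (adjusted p = 0.0012).

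An exon of Gpr15 overlaps Cpox, a haem synthesis gene on the opposite strand. Without a stated strand setting, reads of the shared stretch cannot be assigned to either gene. The part of Cpox reads in the Gpr15 counts was not tested. In 41BB- cells at 24 h Cpox had 439 counts and Gpr15 had 3. Cpox stood at 32.7 ± 3.65 and 10.8 ± 0.397 CPM in 41BB+ and 41BB- cells at 0 h, at 70.9 ± 7.74 and 40.3 ± 4.38 CPM at 24 h, and at 74 ± 15.2 and 105 ± 13.5 CPM at 72 h. The promoter of Gpr15 is shown because this gene had the largest rise of the 8 from 24 to 72 h. It is given 5' to 3' on its own strand from 250 bases before to 50 bases after the RefSeq start (GRCm38.p6, chr16:58718823-58719122, minus strand), with capitals for matches to the Kruppel-like factor core CACCC on either strand, at -57 and 28 counted from the start.
Gpr15: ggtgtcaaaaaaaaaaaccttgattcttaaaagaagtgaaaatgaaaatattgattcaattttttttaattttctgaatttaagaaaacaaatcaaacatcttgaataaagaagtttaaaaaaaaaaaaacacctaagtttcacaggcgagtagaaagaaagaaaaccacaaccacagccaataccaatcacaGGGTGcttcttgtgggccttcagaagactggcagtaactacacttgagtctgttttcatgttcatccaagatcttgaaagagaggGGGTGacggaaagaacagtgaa
The CACCC core was present in 57.5% of the 32851 RefSeq promoters of this length. Neither the FOXO core GTAAACA nor the T-box core TCACAC was found in this window on either strand.

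Cxcr3, the receptor gene for interferon-induced chemokines, rose late in both populations. Its 41BB+ libraries had 13.8, 11.4 and 14.2 CPM at 0 h, 11.1, 11.9 and 6.39 CPM at 24 h and 37.3, 31.1 and 52 CPM at 72 h. Its 41BB- libraries had 10.8, 19.4 and 13 CPM at 0 h, 10.2, 4.49 and 7.95 CPM at 24 h and 61.1, 60.5 and 56.4 CPM at 72 h. Every 72 h library lay above every library of 0 and 24 h. From 24 to 72 h Cxcr3 rose 4.31-fold in 41BB+ cells (log2FC 2.11 ± 0.27, adjusted p = 2.06e-07) and 8.84-fold in 41BB- cells (log2FC 3.14 ± 0.28, adjusted p = 6.96e-10). The difference between these rises missed the threshold (log2FC -1.04 ± 0.39, adjusted p = 0.0699). It passed with the experiment number as a block within each time (adjusted p = 0.0498), by limma voom (0.0416) and without 41BB+ replicate 3 of 24 h (0.0424), 41BB- replicate 1 of 24 h (0.0468) or 41BB+ replicate 3 of 72 h (0.0365).

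No difference in Cxcr3 between the populations passed at 0 h (log2FC -0.14 ± 0.28, adjusted p = 0.754) or 24 h (log2FC 0.51 ± 0.31, adjusted p = 0.565). At 72 h the 3 41BB+ libraries lay below the 3 41BB- libraries, at 40.1 ± 10.7 against 59.3 ± 2.57 CPM, but the difference did not pass (log2FC -0.52 ± 0.24, adjusted p = 0.14) except by limma voom (adjusted p = 0.0308). From 0 to 24 h Cxcr3 fell in 41BB- cells (log2FC -1.03 ± 0.30, adjusted p = 0.00512), a call lost without replicate 2 of 0 h (adjusted p = 0.0709) or of 24 h (adjusted p = 0.0748). The T-box factors T-bet and EOMES are known regulators of Cxcr3, so its promoter is shown with capitals for the T-box core TCACAC, searched on both strands and found at -234 from the start (RefSeq, GRCm38.p6, chrX:101734098-101734397, minus strand).
Cxcr3: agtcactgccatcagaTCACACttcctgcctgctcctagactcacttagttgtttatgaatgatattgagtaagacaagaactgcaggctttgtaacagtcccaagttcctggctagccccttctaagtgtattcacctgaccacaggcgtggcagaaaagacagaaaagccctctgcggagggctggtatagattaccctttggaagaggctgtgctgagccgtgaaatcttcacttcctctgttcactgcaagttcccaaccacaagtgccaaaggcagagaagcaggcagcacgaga
The core occurred in 14.5% of the 32851 promoters, and among the 6 members with a promoter entry (Cxcr3, Gpr15, Ccr9, Cxcr4, Ccr2 and Cxcr6) in Cxcr3 alone. Eomes averaged 568 ± 37.9 CPM in 41BB+ cells, against 56.6 ± 4.8 CPM in 41BB- cells, at 0 h (log2FC 3.31, adjusted p = 3.95e-08). Tbx21, which encodes T-bet, was lower in 41BB+ cells at 72 h (27.7 ± 6.74 CPM, against 47.5 ± 6.58 CPM in 41BB- cells, log2FC -0.74, adjusted p = 0.0209). The part of either factor in the Cxcr3 values was not tested.

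Ccr9, the receptor gene for the thymic and intestinal chemokine CCL25, fell from 0 to 24 h and stayed low at 72 h. At 0 h it had 59.8, 62.4 and 69.7 CPM in 41BB+ and 94.2, 101 and 104 CPM in 41BB- libraries. At 24 h these were 1.7, 5.57 and 1.02 CPM in 41BB+ and 6.06, 7.8 and 3.98 CPM in 41BB- libraries. At 72 h they were 2.47, 5.82 and 1.35 CPM in 41BB+ and 0, 1.74 and 0.236 CPM in 41BB- libraries. Every stimulated library thus lay below every 0 h library, and at 72 h the 41BB- libraries held 7 counts in all. The fall from 0 to 24 h was 22.1-fold in 41BB+ cells (adjusted p = 9.31e-08) and 17.4-fold in 41BB- cells (adjusted p = 2.01e-08). Replicate 2 of 24 h, the library with myeloid markers, held 21 of the 31 Ccr9 counts of its 41BB+ group, and without it the fall was 42.9-fold (adjusted p = 1.75e-09). In 41BB- cells Ccr9 fell again from 24 to 72 h (log2FC -3.08 ± 0.71, adjusted p = 0.00159), or by a log2FC of -5.16 (adjusted p = 0.000113) without replicate 2 of 72 h, which held 6 of the 7 counts. In 41BB+ cells the second interval did not pass (log2FC 0.26 ± 0.59, adjusted p = 0.746), nor without replicate 2 of 24 h (log2FC 1.29, adjusted p = 0.0992).

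Ccr9 was 1.57-fold lower in 41BB+ cells at 0 h, where the libraries did not overlap, but this did not pass over all genes (log2FC -0.65 ± 0.32, adjusted p = 0.113). It passed with the experiment number as a block within each time (adjusted p = 0.00744), when only the 0 h groups were fitted (0.000308), by limma voom (0.000376) and without the filter on low counts (0.0166). At 72 h Ccr9 was higher in 41BB+ cells, with 34 counts, against 7 counts in 41BB- cells (log2FC 2.34 ± 0.79, adjusted p = 0.0449). It no longer passed by limma voom (adjusted p = 0.0714) or on leaving out replicate 1 or 2 of the 41BB+ cells (0.0557 and 0.221) or replicate 1 or 3 of the 41BB- cells (0.125 and 0.149). The interaction of population and time passed from 0 to 72 h (log2FC 2.99 ± 0.85, adjusted p = 0.00752) and from 24 to 72 h (log2FC 3.33 ± 0.95, adjusted p = 0.0192). Without 41BB- replicate 2 of 72 h the log2FC was 4.43 between populations at 72 h, 5.09 for the interaction from 0 to 72 h and 5.43 for that from 24 to 72 h, values that rest on 1 count in the 41BB- group. Without 41BB+ replicate 2 of 72 h they were 1.68, 2.35 and 2.68, and without 41BB+ replicate 2 of 24 h the last was 4.42. The interaction from 24 to 72 h no longer passed on leaving out the 72 h libraries of 41BB+ replicate 2 (adjusted p = 0.0737) or 41BB- replicate 3 (0.0566), and with only the compared groups (0.0512). In GENCODE M21 an exon of Ccr9 overlaps Slc6a20a on the opposite strand, which had at most 1.58 CPM in any library. Promoters of Ccr9 (chr9:123766961-123767260, plus strand) and Cxcr4 (chr1:128592250-128592549, minus strand) are set side by side because these 2 genes had the largest falls of the 8 from 0 to 24 h in 41BB+ and in 41BB- cells, with capitals for the CACCC core on either strand.
Ccr9: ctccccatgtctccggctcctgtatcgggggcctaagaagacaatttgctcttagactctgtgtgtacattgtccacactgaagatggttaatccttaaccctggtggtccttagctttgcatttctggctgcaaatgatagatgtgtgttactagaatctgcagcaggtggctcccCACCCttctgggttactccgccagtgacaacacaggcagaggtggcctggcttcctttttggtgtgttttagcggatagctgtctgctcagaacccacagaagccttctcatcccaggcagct
Cxcr4: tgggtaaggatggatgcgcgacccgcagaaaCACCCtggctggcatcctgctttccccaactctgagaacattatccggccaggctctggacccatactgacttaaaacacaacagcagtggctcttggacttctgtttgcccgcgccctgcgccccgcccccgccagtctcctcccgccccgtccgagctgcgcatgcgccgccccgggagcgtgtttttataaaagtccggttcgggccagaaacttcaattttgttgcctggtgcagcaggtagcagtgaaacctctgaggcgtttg
Each window held 1 match, at -73 in Ccr9 and at -219 in Cxcr4, and neither held the FOXO or the T-box core.

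Cxcr4, the receptor gene for CXCL12, fell as far as Ccr9 at 24 h and came partly back. The 41BB+ libraries had 54.2, 44.9 and 40 CPM at 0 h, 1.7, 3.45 and 1.02 CPM at 24 h and 24.4, 23.6 and 14 CPM at 72 h. The 41BB- libraries had 66.6, 66.8 and 52.2 CPM at 0 h, 3.51, 1.89 and 5.97 CPM at 24 h and 13.2, 17.1 and 29.5 CPM at 72 h. The 3 times did not overlap in either population. The fall from 0 to 24 h was 21.4-fold in 41BB+ (adjusted p = 9.51e-10) and 17.4-fold in 41BB- cells (adjusted p = 1.93e-10). The rise from 24 to 72 h was 10.4-fold in 41BB+ (adjusted p = 8.08e-08) and 5.94-fold in 41BB- cells (adjusted p = 2.74e-06). Without 41BB+ replicate 2 of 24 h, which held 13 of its group's 23 Cxcr4 counts, the fall in 41BB+ cells was 31-fold and the rise 15.8-fold. At 72 h the level was still below that of 0 h, 2.06-fold in 41BB+ (adjusted p = 0.00409) and 2.93-fold in 41BB- cells (adjusted p = 7.77e-05).

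No difference in Cxcr4 between the populations passed at 0 h (log2FC -0.43 ± 0.27, adjusted p = 0.23), 24 h (log2FC -0.73 ± 0.50, adjusted p = 0.637) or 72 h (log2FC 0.07 ± 0.30, adjusted p = 0.909). The 0 h difference passed when only those groups were fitted (adjusted p = 0.0293) and by limma voom (adjusted p = 0.0442). No interaction passed, and that from 0 to 72 h had a log2FC of 0.50 ± 0.41 (adjusted p = 0.348), or 0.99 without 41BB- replicate 3 of 72 h (adjusted p = 0.0463). In order of level, both 0 h groups came first and overlapped, then both 72 h groups, which overlapped, then both 24 h groups, which overlapped.

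Cxcr6, the receptor gene for CXCL16, fell in both populations. No difference between them passed in the main fit, which did not pair libraries by experiment number. It had 54.2, 52.1 and 47.1 CPM in 41BB+ and 37.2, 52.5 and 68.8 CPM in 41BB- libraries at 0 h (log2FC -0.06 ± 0.25, adjusted p = 0.878). At 24 h it had 11.3, 11.7 and 9.2 CPM in 41BB+ and 17.5, 19.9 and 19.3 CPM in 41BB- libraries (log2FC -0.70 ± 0.29, adjusted p = 0.272). At 72 h it had 9.88, 14 and 26.4 CPM in 41BB+ and 24.2, 23.5 and 34.2 CPM in 41BB- libraries (log2FC -0.67 ± 0.27, adjusted p = 0.0855). The 24 h libraries of the 2 populations did not overlap, and at 72 h replicate 3 was the highest library in each population. The 72 h difference passed with the experiment number as a block within each time (log2FC -0.73, adjusted p = 0.0203), and without 41BB+ replicate 3 (log2FC -1.12, adjusted p = 0.00457).

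From 0 to 24 h Cxcr6 fell 4.59-fold in 41BB+ cells (adjusted p = 3.84e-07) and 2.94-fold in 41BB- cells (adjusted p = 1.23e-05), and the difference between these falls did not pass (interaction log2FC -0.64 ± 0.38, adjusted p = 0.257). From 24 to 72 h it rose 1.64-fold in 41BB+ (adjusted p = 0.0412) and 1.6-fold in 41BB- cells (adjusted p = 0.0426). Both small rises were lost when single libraries were left out, with adjusted p up to 0.566 in 41BB+ cells (without replicate 3 of 72 h, and 0.0563 without replicate 2 of 24 h) and up to 0.286 in 41BB- cells (without replicate 3 of 72 h). At 72 h Cxcr6 was lower than at 0 h in 41BB+ cells (log2FC -1.48 ± 0.26, adjusted p = 3.79e-05) and in 41BB- cells (log2FC -0.88 ± 0.25, adjusted p = 0.00577). The call in 41BB- cells was lost without replicate 3 of 0 h (adjusted p = 0.0607). The difference between these changes did not pass (interaction log2FC -0.61 ± 0.36, adjusted p = 0.197), except without 41BB+ replicate 3 of 72 h (log2FC -1.04, adjusted p = 0.0149).

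Ccr2, the receptor gene for CCL2, was the least expressed member per kilobase in 41BB- cells at 0 h and 24 h. In CPM, Gpr15 was below Ccr2 in these cells, at 3.09 against 3.93 CPM at 0 h and 0.252 against 0.426 CPM at 24 h. Ccr2 had 16, 18 and 30 counts in 41BB+ and 14, 10 and 14 counts in 41BB- libraries at 0 h. At 24 h it had 2, 24 and 0 counts in 41BB+ and 0, 3 and 2 counts in 41BB- libraries. At 72 h it had 2, 11 and 39 counts in 41BB+ and 10, 16 and 41 counts in 41BB- libraries. Replicate 3 was the highest library of both populations at 72 h, and at 24 h nearly all 41BB+ counts came from replicate 2. No difference between populations passed (log2FC 0.58 ± 0.89 at 0 h, 2.39 ± 1.22 at 24 h and -0.21 ± 0.87 at 72 h, adjusted p = 0.67, 0.451 and 0.91). The 24 h log2FC was -0.57 without 41BB+ replicate 2.

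That library was also the only one of its group with Lyz2 and Csf1r, as given above, and Ccr2 is a known marker of inflammatory monocytes. Their part in the Ccr2 value was not tested. Without that library, Ccr2 fell from 0 to 24 h in 41BB+ cells (log2FC -4.18, adjusted p = 0.00649) and rose from 24 to 72 h (log2FC 4.06, adjusted p = 0.0048). With it, neither passed (log2FC -1.29 and 1.10, adjusted p = 0.301 and 0.342), except the fall by limma voom with quality weights (log2FC -2.64, adjusted p = 0.0239). In 41BB- cells Ccr2 fell from 0 to 24 h (log2FC -3.10 ± 1.18, adjusted p = 0.0301) and rose from 24 to 72 h (log2FC 3.70 ± 1.14, adjusted p = 0.0131). The fall was lost without any 1 of the 6 libraries (adjusted p 0.0506 to 0.108), and the rise without replicate 1 (0.0614) or 3 (0.0514) of 24 h or replicate 3 of 72 h (0.0626). At 72 h Lyz2 and Csf1r had 0 counts in all 6 libraries.

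**Figure D4:**
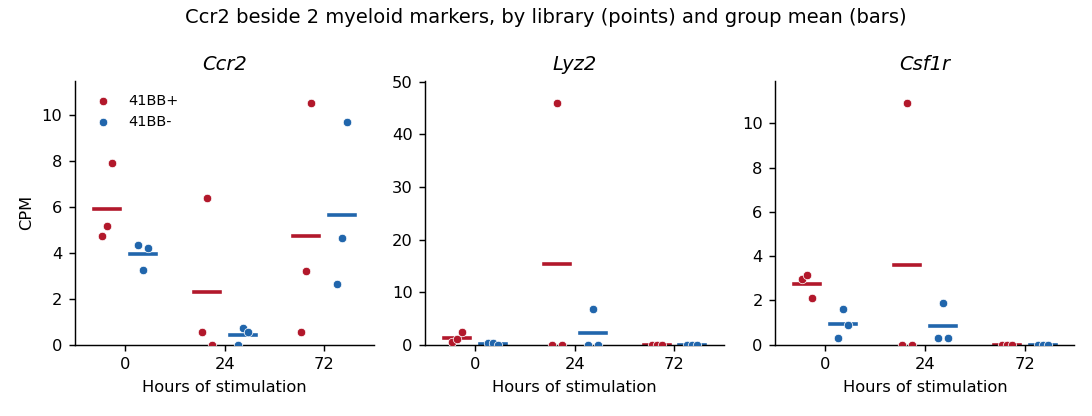
CPM (y axis, linear, from 0) of Ccr2 and the myeloid genes Lyz2 and Csf1r by hours of stimulation (x axis), with 41BB+ libraries in red left of 41BB- libraries in blue; points are libraries and bars are group means. At 24 h 1 library of 41BB+ cells carries 45.9 CPM of Lyz2, 10.9 CPM of Csf1r and 6.36 CPM of Ccr2.

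Counted over the 8 receptor genes, the changes from 0 to 24 h that passed were all falls. In 41BB+ cells 4 fell (S1pr1, Ccr9, Cxcr4 and Cxcr6) and 4 did not pass, beside 16.5% of all genes lower and 34.6% changed, and without replicate 2 of 24 h 5 fell. In 41BB- cells all 8 fell, beside 27.6% of all genes lower and 56.6% changed. From 24 to 72 h 6 rose in 41BB+ cells (background 26.2%, or 52.5% in either direction), and in 41BB- cells 6 rose (background 22.6%, or 40.8% in either direction) and 1, Ccr9, fell (background 18.2%). From 0 to 72 h S1pr1, Ccr7, Cxcr3 and Gpr15 rose in 41BB+ cells (4 of 8, background 23.4%) and Ccr9, Cxcr4 and Cxcr6 fell (3 of 8, background 23.4%), where 46.7% of all genes changed. Over the same span in 41BB- cells Cxcr3 and Gpr15 rose (2 of 8, background 26.8%) and S1pr1, Ccr7, Ccr9, Cxcr4 and Cxcr6 fell (5 of 8, background 21.1%), where 47.9% of all genes changed. The interaction of population and time passed for 2 members from 0 to 24 h (background 9.03% higher and 23% in either direction), 3 from 24 to 72 h (6.1% and 17.5%) and 4 from 0 to 72 h (17.6% and 40.9%), each with the change in 41BB+ cells above that in 41BB- cells. Comparisons over adjoining intervals share the 24 h libraries, and the population contrasts share their libraries with the interactions.

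**Figure D5:**
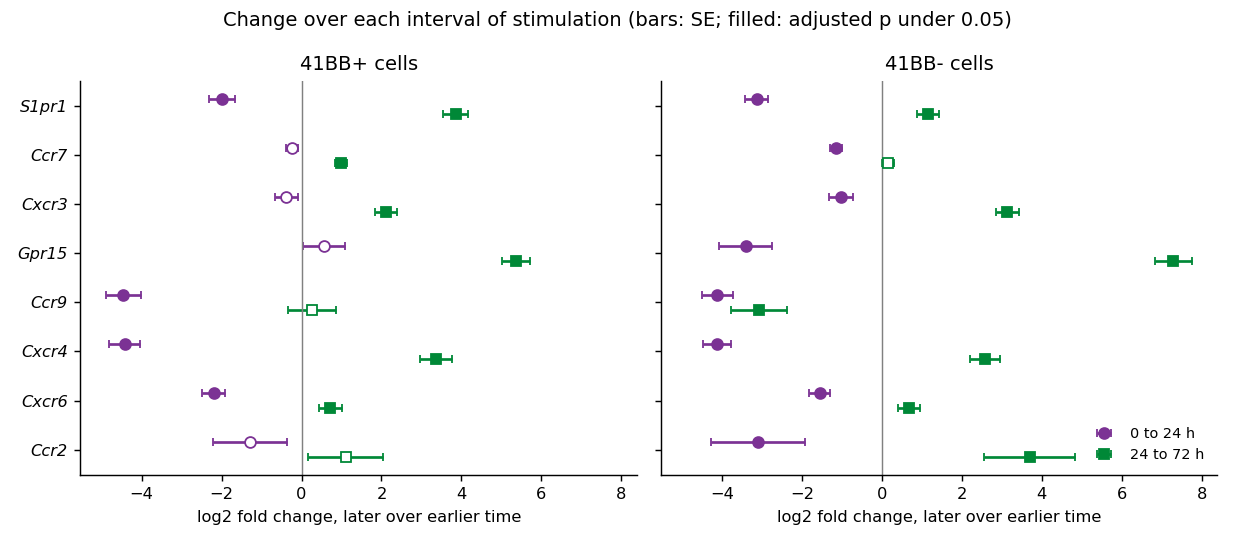
Log2 fold change over 0 to 24 h (purple circles) and 24 to 72 h (green squares) on the x axis for the 8 receptor genes (rows), in 41BB+ cells (left) and 41BB- cells (right). Points are edgeR estimates, bars are SE and filled points have an adjusted p under 0.05; in 41BB+ cells Gpr15 has the highest second-interval value (5.37), and in 41BB- cells Ccr9 falls in both intervals (-4.12 and -3.08).

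Other receptors of the same families were followed in lists by family. Of 16 other chemokine receptor genes only 5 had enough counts to be tested (Ccr4, Ccr6, Ccr8, Cxcr5 and Cx3cr1). Ccr6 was higher in 41BB+ cells at 0 h (1.64 ± 1.65 CPM, against 0.101 ± 0.174 CPM in 41BB- cells, adjusted p = 0.0116), on 17 counts in 41BB+ and 1 count in 41BB- libraries. Ccr4, a receptor gene for skin homing, rose at 24 h to 29.6 ± 6.57 CPM in 41BB+ cells, against 14.1 ± 1.35 CPM in 41BB- cells, a population difference that did not pass (log2FC 1.19, adjusted p = 0.0732). At 72 h it was lower in 41BB+ cells (4.44 ± 3.46 CPM, against 16.1 ± 2.61 CPM in 41BB- cells, log2FC -1.83, adjusted p = 0.00146). Its change from 24 to 72 h differed between the populations (interaction log2FC -3.02, adjusted p = 0.000181). At 24 h edgeR called 0 of the 5 between populations, while DESeq2 called 1 and 1 had an unadjusted p under 0.05.

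Among 15 other lipid and chemoattractant receptor genes, 10 were tested. Gpr183 is in this list and in that of egress genes, so its call at 0 h counts in both. At 0 h 5 were lower in 41BB+ cells (background 17.3%) and 2 were higher (background 22.2%), with a median log2FC of -0.57, and at 72 h 5 were higher (background 6.71%) and 1 was lower (background 12.2%), with a median of 0.53. S1pr4, another sphingosine 1-phosphate receptor gene, averaged 18.6 ± 1.3 CPM in 41BB+ cells, against 50.7 ± 5.89 CPM in 41BB- cells, at 0 h (log2FC -1.46, adjusted p = 9.29e-07). At 72 h it averaged 89.7 ± 12.1 CPM in 41BB+ cells, against 61.7 ± 13.8 CPM in 41BB- cells (log2FC 0.58, adjusted p = 0.0239). P2ry10 was lower in 41BB+ cells at 0 h (log2FC -1.23, adjusted p = 9.46e-06) and higher at 72 h (log2FC 0.95, adjusted p = 0.000492). Gpr132, a receptor gene for lysolipids and acid, was lower at 0 h (log2FC -1.35, adjusted p = 1.32e-06) and did not pass at 72 h (log2FC 0.48, adjusted p = 0.0732). Gpr174, a lysophosphatidylserine receptor gene, was higher in 41BB+ cells at 0 h (log2FC 0.88, adjusted p = 9.59e-05), and the prostaglandin receptor gene Ptger4 was lower at 72 h (log2FC -0.63, adjusted p = 0.007). At 24 h edgeR called 0 of the 10, while DESeq2 called 1 and 2 had an unadjusted p under 0.05.

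Homing receptors signal through Gi proteins to the actin regulators that move the cell. Of 27 genes of this signalling, 26 were tested, and at 0 h 15 were lower in 41BB+ cells (background 17.3%), with a median log2FC of -0.53. Dock2, the main Rac activator of lymphocyte migration, averaged 699 ± 56.5 CPM in 41BB+ cells, against 1472 ± 129 CPM in 41BB- cells, at 0 h (log2FC -1.09, adjusted p = 3.76e-09). At 72 h its order had turned, with 1539 ± 95.1 CPM in 41BB+ cells, against 820 ± 57.2 CPM in 41BB- cells (log2FC 0.94, adjusted p = 5.89e-07). Pik3r5, a regulatory subunit gene of phosphoinositide 3-kinase gamma, was lower at 0 h (log2FC -1.57, adjusted p = 9.16e-09) and higher at 72 h (log2FC 0.69, adjusted p = 0.00202). Dock8 was lower at 0 h (log2FC -0.79, adjusted p = 4.33e-07) and higher at 72 h (log2FC 0.55, adjusted p = 0.000347), and the arrestin gene Arrb2 was lower at 0 h (log2FC -1.08, adjusted p = 3.98e-08). At 72 h 6 of the 26 were higher (background 6.71%) and 2 lower (background 12.2%), with a median of 0.05. At 24 h edgeR called 0 of the 26, while DESeq2 called 1 and 6 had an unadjusted p under 0.05.

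Of 17 transcription regulators of homing, 16 were tested. In 41BB+ cells at 0 h 7 were lower (background 17.3%) and 4 higher (background 22.2%). At 72 h 5 were higher (background 6.71%) and 3 lower (background 12.2%). Klf2 and Foxo1 are in this list and in that of egress genes, so their calls count in both. Lef1, a factor of naive T cells, averaged 378 ± 42.7 CPM in 41BB+ cells, against 1072 ± 69.1 CPM in 41BB- cells, at 0 h (log2FC -1.52, adjusted p = 1.63e-09). Lef1 at 72 h averaged 640 ± 122 CPM in 41BB+ cells, against 322 ± 14.5 CPM in 41BB- cells (log2FC 1.03, adjusted p = 7.23e-06). Klf3 was lower in 41BB+ cells at 0 h (log2FC -1.43, adjusted p = 1.13e-08) and 24 h (log2FC -0.88, adjusted p = 0.0029) and higher at 72 h (log2FC 1.08, adjusted p = 1.52e-05), the 3 directions seen for S1pr1. Ahr, the aryl hydrocarbon receptor gene, known to promote Gpr15 expression, was higher in 41BB+ cells at 0 h (10.2 ± 0.979 CPM, against 2.89 ± 0.914 CPM in 41BB- cells, log2FC 1.79, adjusted p = 0.00018). At 72 h Ahr was lower in 41BB+ cells (4.67 ± 2.74 CPM, against 9.41 ± 1.69 CPM in 41BB- cells, log2FC -0.97, adjusted p = 0.0354). Its part in the Gpr15 values was not tested. Of 12 ligand genes, 11 were in the table and only Ccl25 was tested, with 21.3 ± 6.5 CPM in 41BB+ cells, against 29.5 ± 10.6 CPM in 41BB- cells at 0 h (log2FC -0.48, adjusted p = 0.142).

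The genes most like each member were sought by the root mean square difference of log2 CPM over the 18 libraries, each gene centred on its own mean, among 9401 genes with a mean of at least 5 CPM. The closest to S1pr1 were Scml4 (0.28), Pik3ip1 (0.36) and Acss1 (0.41 log2 units), where S1pr1 itself varied by 1.60 log2 units around its mean. Rab3ip (0.17) was closest to Ccr7, whose own spread was 0.53. For Cxcr3 it was Glrx (0.41 of a spread of 1.15), followed by S100a10 (0.46). Gpr15 was nearest to S100a6 (0.65 of 2.49), then Lgals1 (0.90), which encodes galectin-1. The closest matches of the other 4 were Sema4a for Cxcr4 (0.64 of 1.78), Dse for Cxcr6 (0.41 of 0.87), AW011738 (0.94 of 2.48) and Ifit1 (1.00) for Ccr9 and, for Ccr2, Tm6sf1 (0.81 of 1.37). These values describe shared patterns over 18 libraries that also share their times, populations and experiments.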

How the data were processed

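Total RNA was made into libraries with Takara's SMARTer Stranded v2 kit, per the labels. The submitters' processing notes name FastQC 0.11.9, Trimmomatic 0.38, HISAT2 2.2.1, featureCounts and the build GRCm38. No source used here gives the annotation release, the strand setting or the handling of multiply matching reads. What the authors deposited are raw whole-number counts for 55487 Ensembl IDs in 18 libraries. Symbols, coordinates and exon lengths came from GENCODE M21 (55227 IDs matched), promoters from RefSeq on GRCm38.p6.

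CPM is the count divided by the library total, scaled to 1e6. Depth was 3085241 to 4239795 counts a library, which limits the precision of genes with few counts. edgeR 4.0.16 in R 4.3.3 was fitted to all 18 libraries with filterByExpr (minimum count 10, minimum total count 15), TMM factors, 1 mean per group and robust quasi-likelihood F-tests. The SE of a log2FC is its size over the square root of F. Counting intervals (95%) are exact and cover counting error only. Replicates of a group were distinct libraries, their chi-square per degree of freedom being 4.8 to 9.84. P-values measure the spread between these libraries, which may be technical in part. The fit was tested on simulated data.

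The titles number experiments, and the study sorted both populations out of a CD8+ pool, so same-numbered 41BB+ and 41BB- libraries of a time were treated as a pair. As a check, deviations from group means were correlated over 12686 genes off the sex chromosomes. The median r was 0.107 in the 9 same-numbered pairs (-0.043 to 0.243, 5 above 0.1) and -0.0632 in the 18 others. The main fit had no block and so did not use this pairing, which entered only through the replicate blocks named below.

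Other settings tried were DESeq2 1.42.0, RLE scaling, no low-count filter, 2 forms of the replicate block, a fit to the compared groups alone, limma 3.58.1 (voom, quality weights), a table without mitochondrial and ribosomal genes, and leaving out each library. The members and lists were chosen with earlier results of these data known. Named genes were the members, the sort checks, the marker genes, for each list up to 4 genes by smallest adjusted p at 0 h and up to 2 in each other population or interaction comparison, and the genes most like each member. Cpox, Slc6a20a, Xcr1, Ccr1, Ccr3, Mpeg1, Ctss, Ly6c2 and Ctla4 were added after their values were seen. So were further values of listed genes at other times. Some genes of the lists are not reported here.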

Additional observations from a re-analysis of the deposited data

Results flagged for a closer look

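Changes over time that differed between 41BB+ and 41BB- cells by the interaction test are listed here with the log2 difference of the changes. For S1pr1 it was 2.71 from 24 to 72 h and 3.86 from 0 to 72 h. For Ccr7 it was 0.89 from 0 to 24 h, 0.83 from 24 to 72 h and 1.72 from 0 to 72 h. For Gpr15 it was 3.97 from 0 to 24 h, where the 41BB- libraries of 24 h held 3 counts, and 2.05 from 0 to 72 h. For Ccr9 it was 3.33 from 24 to 72 h and 2.99 from 0 to 72 h, where the 41BB- libraries of 72 h held 7 counts. All 9 are positive, meaning that the change in 41BB+ cells lay above that in 41BB- cells. They are not separate results, since each value from 0 to 72 h adds up those of the shorter intervals. They cover 2 of 8 members from 0 to 24 h (background 9.03% higher, 23% in either direction). From 24 to 72 h they cover 3 members (6.1% and 17.5%), and from 0 to 72 h 4 members (17.6% and 40.9%). Interactions that did not pass had both signs. The spread within groups of 3 libraries was not used to flag results for this list. The library that stood apart by its myeloid markers, and the fits with each library left out, are described in the other sections.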

How the results depend on the processing

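Of the 96 differences of the 8 members over the 12 comparisons, 57 passed. Of the 57, 43 kept their call under every left-out library and every alternative that gave them an adjusted p. Some alternatives did not test every member. Over the alternative fits, 682 of 711 values kept direction and side of the threshold, 11 lost the call, 15 gained one and 3 changed sign. With each library left out, 643 of 720 kept both, 45 lost the call, 10 gained one and 22 changed sign. No sign change was among differences that passed. The 2 members called between populations at 24 h became 0 with only the compared groups, where 6 members were tested, 1 by limma voom and 0 to 2 with a library left out. The 4 called at 72 h became 1 to 4, and the 3 interactions from 24 to 72 h became 2 to 5, with a library left out. The cause was not tested.

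The log2FC ranged with a library left out from -0.33 to 0.11 for Cxcr3 and -0.29 to 0.17 for Cxcr6 between populations at 0 h, from -0.57 to 2.97 for Ccr2 at 24 h, and from -0.10 to 0.54 for Cxcr4 and -1.52 to 0.50 for Ccr2 at 72 h. In 41BB+ cells from 24 to 72 h it ranged from -0.45 to 1.29 for Ccr9 and -0.25 to 4.06 for Ccr2. For Ccr2 from 0 to 72 h it ranged from -1.49 to 0.40 in 41BB+ and -0.05 to 0.93 in 41BB- cells. Interactions from 0 to 24 h ranged from -1.36 to 0.08 for Ccr9, -0.88 to 0.20 for Cxcr4 and -1.13 to 2.41 for Ccr2, and from 24 to 72 h from -3.90 to 0.42 for Ccr2 and -0.41 to 0.37 for Cxcr6. That Cxcr6 interaction, 0.03, was -0.001 with the replicate block, -0.02 with the replicate block within each time and -0.13 by limma voom.

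The replicate block over all times changed no member's call. The block within each time changed the 4 calls given in the text, for S1pr1, Cxcr3, Ccr9 and Cxcr6, and no other. Depth limits Gpr15 and Ccr2 at 24 h and Ccr9 at 72 h, which rest on 0 to 24 counts a library. It also limits Gpr15 at 0 h (4 to 13 counts a library) and, at 24 h, Cxcr4 (4 to 21) and Ccr9 (4 to 33). The same holds for Ccr2 at 0 h (10 to 30) and 72 h (2 to 41).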
